A study of Rattus norvegicus with 3 samples.

Results

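Intermediate filament transcripts were followed in motor cortex from male Sprague-Dawley rats, 3 animals numbered 19, 35 and 70. Each had undergone cerebral ischemia and reperfusion, in which the brain's blood supply is stopped and then restored. All 3 animals form 1 group at a labelled time of 8 weeks, which the labels do not define as an age or as an interval after the operation, and the 3 libraries were treated as separate animals because each carries its own number. No untreated animals were analysed here, so every comparison is between rats or between genes within a rat. The 6 genes of the set were sought by symbol among 30957 listed genes, and 5 of the 6 were found: Gfap, Vim, Synm, Lmna and Lmnb1, each on a single row. No row carried the symbol Nes, but 2 rows were described as nestin-like under the name LOC100910255, and these are given apart.

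Intermediate filaments are rope-like polymers that give cells and nuclei their mechanical strength. Astrocytes, the glial cells that support neurons and form scars after injury, build theirs mainly from glial fibrillary acidic protein, encoded by Gfap. Vimentin, encoded by Vim, is the filament of immature and reactive astrocytes and also of endothelial cells, fibroblasts and many blood-derived cells, so it is not a glial marker by itself. Synemin, encoded by Synm, joins vimentin or glial fibrillary acidic protein in mixed filaments and links them to membrane complexes. Nestin is another filament protein, of neural precursors, reactive astrocytes and young vessels. The lamins encoded by Lmna and Lmnb1 belong to the same protein family but form the lamina under the nuclear envelope of most nucleated cells, so the label of glial filaments covers Gfap, and in part Vim and Synm, but not the lamins.

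The sequences just before the starts of Gfap and Vim are shown because these 2 most abundant filament genes differed in their order over the rats. Each is the 250 bases before the annotated start, from RefSeq on build GRCr8, at chr10:88361662-88361911 on the minus strand for Gfap and chr17:81577011-81577260 on the plus strand for Vim. Capitals mark matches, on either strand, to any of 5 motifs, and the marked matches do not overlap. The motifs were the TATA box with the letters TATAAA, the CCAAT box with the letters CCAAT, the GC box with the letters GGGCGG, the AP-1 element with the letters TGANTCA, and a STAT element with the letters TTCNNNGAA.
Gfap: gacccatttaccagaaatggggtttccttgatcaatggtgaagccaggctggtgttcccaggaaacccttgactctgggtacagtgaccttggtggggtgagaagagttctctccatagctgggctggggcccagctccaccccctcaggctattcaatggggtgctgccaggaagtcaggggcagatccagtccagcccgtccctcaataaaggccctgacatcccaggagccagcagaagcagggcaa
Vim: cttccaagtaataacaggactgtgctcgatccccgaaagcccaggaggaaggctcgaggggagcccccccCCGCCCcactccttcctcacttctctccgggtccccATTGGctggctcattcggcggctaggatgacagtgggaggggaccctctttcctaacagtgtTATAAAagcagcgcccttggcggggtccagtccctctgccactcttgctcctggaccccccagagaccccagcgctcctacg
The Vim window held 1 match each to the TATA box, the CCAAT box and the GC box, the last 2 read on the opposite strand, and these motifs were also in 12.9%, 34.0% and 30.5% of 33469 rat promoter windows of this length. The Gfap window held no match to any of these 5 motifs, which says only that these letters are not in these 250 bases. The AP-1 and STAT elements were in neither window and in 6.34% and 7.67% of all windows. Promoters of all 6 sought genes were matched by symbol, and the CCAAT box was matched in the Synm and Lmnb1 windows as well as in that of Vim. A link between these motifs and the levels was not tested.

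Rat 35 stood apart from the others across the whole series. The Pearson correlation of log2(FPKM + 1) was taken over the 14134 genes with a mean of 1 FPKM or more (fragments per kilobase of gene, scaled to library size). Across these genes, which are not independent replicates, it was 0.926 between rats 19 and 70, while rat 35 had 0.802 with rat 19 and 0.707 with rat 70. The 10 neuronal markers, which a piece of motor cortex should carry, summed to 1571 FPKM in rat 19, 68.5 FPKM in rat 35 and 2089 FPKM in rat 70, with none at 0. Member ranges, some ratio ranges and the list counts over 2-fold apart are therefore also given without rat 35. The values rest on an effective 15560000 fragments in rat 19, 16460000 in rat 35 and 16050000 in rat 70, read from the steps between low values.

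Gfap (ENSRNOG00000002919, chromosome 10, 90990762 to 90999435, minus strand, Rnor 6.0) was highest in rat 19. Its level was 1878 FPKM in rat 19, 564 FPKM in rat 35 and 688 FPKM in rat 70 (1043 ± 725, SD, n = 3). Rats 35 and 70 lay close together, and rat 19 stood 2.73-fold above rat 70 and 3.33-fold above rat 35. Without rat 19, the highest value was only 1.22 times the lowest. Gfap was the gene of rank 19 from the top in rat 19, 87 in rat 35 and 42 in rat 70. In bulk tissue, fewer astrocytes and less Gfap transcript per astrocyte cannot be told apart.

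Vim (ENSRNOG00000018087, chromosome 17, 80882666 to 80891212, plus strand) was highest in rat 35, the animal with the lowest Gfap. Its level was 687 FPKM in rat 19, 1398 FPKM in rat 35 and 438 FPKM in rat 70 (841 ± 498, SD, n = 3). No pair of rats was as close as rats 35 and 70 were for Gfap: rat 35 stood 2.03-fold above rat 19, and rat 19 stood 1.57-fold above rat 70. The range from the highest to the lowest rat was 3.19-fold with all animals, 1.57-fold without rat 35 and 2.03-fold without rat 70. The estimated counting error was far smaller than these differences. The exact Poisson 95% intervals, which cover counting error only, were estimated as 671 to 704 FPKM in rat 19, 1375 to 1421 FPKM in rat 35 and 425 to 452 FPKM in rat 70.

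Synm (ENSRNOG00000014030, chromosome 1, 128692112 to 128722048, minus strand) was far less abundant than Gfap or Vim and was lowest in rat 35. It stood at 6.20 FPKM in rat 19, 2.81 FPKM in rat 35 and 6.08 FPKM in rat 70 (5.03 ± 1.92, SD, n = 3). Rats 19 and 70 were 1.02-fold apart, and their counting intervals, 5.88 to 6.53 and 5.77 to 6.40 FPKM, overlapped. Rat 35 was 2.16-fold below rat 70, so the difference of Synm between animals rested on that rat. Which of rats 19 and 70 was higher changed with each of the 3 other scalings tried, whereas rat 35 stayed lowest in all of them.

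The lamin genes had the order of Vim, with rat 35 on top. Lmna, which encodes lamins A and C (ENSRNOG00000019638, chromosome 2, 187842881 to 187863582, minus strand), stood at 16.7 FPKM in rat 19, 36.3 FPKM in rat 35 and 15.2 FPKM in rat 70 (22.7 ± 11.8, SD, n = 3). Rats 19 and 70 were 1.10-fold apart, and their order turned round under both the common-sum and the median-of-ratios scaling, while rat 35 stayed highest, 2.18-fold above rat 19 as deposited. Lmnb1, which encodes lamin B1 (ENSRNOG00000013774, chromosome 18, 51785111 to 51822264, plus strand), stood at 8.77 FPKM in rat 19, 19.4 FPKM in rat 35 and 4.90 FPKM in rat 70 (11.0 ± 7.49, SD, n = 3). Its exact Poisson 95% intervals, estimated as 7.79 to 9.83, 17.9 to 20.9 and 4.19 to 5.70 FPKM, did not overlap between any of the animals. Lmnb1 had the widest range of the 5 genes, 3.95-fold, which was 1.79-fold without rat 35 and 2.21-fold without rat 70. The third lamin gene, Lmnb2, ranged less, at 6.81 FPKM in rat 19, 9.96 FPKM in rat 35 and 5.88 FPKM in rat 70.

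The first nestin-like row (ENSRNOG00000018681, chromosome 2, 187344056 to 187352969, plus strand) stood at 1.70 FPKM in rat 19, 2.08 FPKM in rat 35 and 0.759 FPKM in rat 70. It was thus highest in rat 35 and lowest in rat 70, as Vim was, but rats 19 and 35 differed by only 1.22-fold. The second row (ENSRNOG00000045562, chromosome 2, 184900037 to 184908345, plus strand) was listed at 0 in rats 19 and 70 and at 0.0060 FPKM in rat 35. Rows with the same name and description can share fragments that the authors' counting split or dropped, so these levels are uncertain and are not read as the level of nestin.

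**Figure D1:**
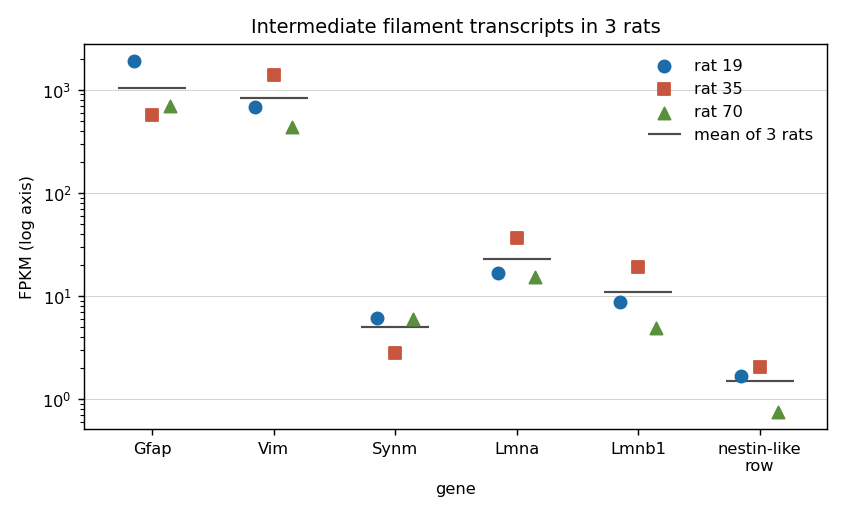
FPKM on a log axis for each of the 5 genes and the first nestin-like row; each marker is a rat and each bar the mean of 3 rats. Gfap and Synm were lowest in rat 35, whereas Vim, Lmna, Lmnb1 and the nestin-like row were highest there.

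All 5 genes were over 2-fold apart between their highest and lowest rat, in a series where 49.9% of the 14134 genes were. Without rat 35 this was so of 1 of the 5, Gfap, and of 17.1% of all genes. As deposited, the order of Vim, Lmna and Lmnb1 (rat 35 above rat 19 above rat 70) was the most frequent of all, found in 33.6% of genes. That of Gfap and Synm (rat 19 above rat 70 above rat 35) was found in 14.2%. For Synm and Lmna, the places of rats 19 and 70 in the order changed with the scaling. The SD of log2(FPKM + 1) over the rats was 0.93 for Gfap, 0.90 for Lmnb1, 0.84 for Vim, 0.66 for Lmna and 0.52 for Synm, beside a median of 0.45 over all genes. This SD was smaller than that of Gfap in 81.5% of genes and smaller than that of Vim in 77.7%.

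The ratio of Gfap to Vim within a rat, which no scaling of the libraries can change, turned round between animals. Gfap was 2.73 times Vim in rat 19, 0.403 times Vim in rat 35 and 1.57 times Vim in rat 70. Glial fibrillary acidic protein transcripts therefore led in rats 19 and 70 and vimentin transcripts in rat 35. The mean log2 ratio was 0.26 ± 1.42 (SD, n = 3), and the 2-sided exact sign-flip permutation test gave p = 0.75 (p = 0.75 after Benjamini-Hochberg adjustment over 10 pairs). The ratio differed 6.77-fold between rats 19 and 35, 3.89-fold between rats 70 and 35, and 1.74-fold between rats 19 and 70.

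With all 3 rats the sum of both transcripts varied less than their ratio, but not without rat 35. Gfap and Vim together came to 2565 FPKM in rat 19, 1962 FPKM in rat 35 and 1127 FPKM in rat 70, a 2.28-fold range. Rats 19 and 70 set that range, so without rat 35 the sum still differed 2.28-fold and the ratio 1.74-fold. Gfap made up 73.2% of that sum in rat 19, 28.7% in rat 35 and 61.1% in rat 70. Rats 35 and 70 thus had Gfap levels within 1.22-fold of each other beside very different shares, while Vim differed 3.19-fold between them.

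Ratios between Vim and the lamins were nearly level over the animals. Vim was 78.4 times Lmnb1 in rat 19, 72.1 times in rat 35 and 89.4 times in rat 70, a 1.24-fold range, 1.14-fold without rat 35. With 3 rats this was the smallest of the 10 ranges, but without rat 35 Synm over Lmna ranged less (1.07-fold) and without rat 70 Lmna over Lmnb1 did (1.01-fold). Vim over Lmna was 41.3 in rat 19, 38.5 in rat 35 and 28.9 in rat 70, a 1.43-fold range. Lmna over Lmnb1, the balance of A-type to B-type lamin transcripts, was 1.90 in rat 19, 1.87 in rat 35 and 3.10 in rat 70, so it was alike in rats 19 and 35 although both lamin levels differed over 2-fold between them. The 4 pairs that set Gfap or Synm against a lamin ranged 5.17- to 8.55-fold, and Vim over Synm ranged 6.90-fold, at 111 in rat 19, 498 in rat 35 and 72.2 in rat 70. Most of that spread lay in rat 35: without it the ranges were 2.49-fold for Gfap over Lmna, 1.53-fold for Gfap over Lmnb1, 1.07-fold for Synm over Lmna, 1.75-fold for Synm over Lmnb1 and 1.54-fold for Vim over Synm. Gfap over Synm, both lowest in rat 35, ranged 2.67-fold, at 303 in rat 19, 201 in rat 35 and 113 in rat 70.

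**Figure D2:**
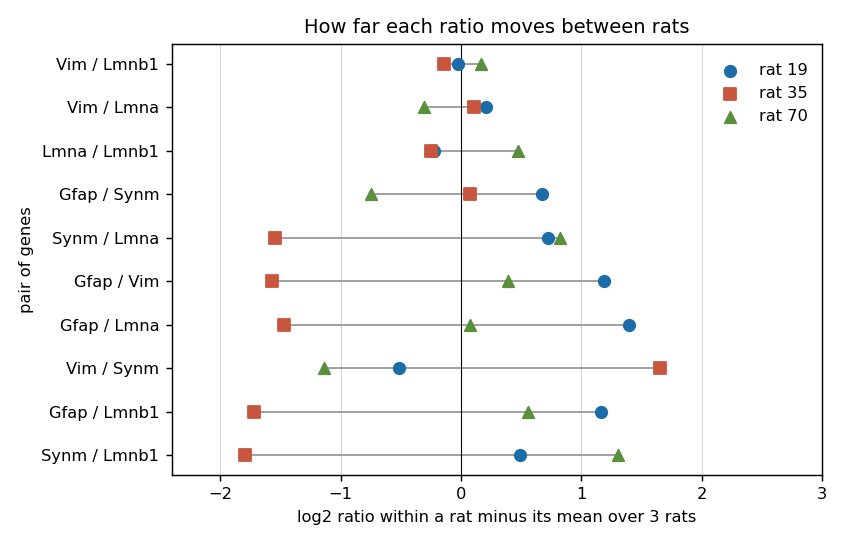
For each of the 10 pairs of genes, the log2 ratio in each rat minus the mean of that ratio over 3 rats; the line joins the lowest and highest rat. Vim over Lmnb1 spans a 1.24-fold range at the top and Synm over Lmnb1 an 8.55-fold range at the bottom, with Gfap over Vim at 6.77-fold.

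By mean level the genes ran Gfap, Vim, Lmna, Lmnb1 and Synm, and of the 4 neighbouring pairs only Vim with Lmna and Lmna with Lmnb1 kept their order in every animal. Of all 10 pairs, 8 had the same gene higher in all 3 rats, with Gfap and Vim above Lmna, Lmna above Lmnb1 and Lmna above Synm. The exact sign-flip permutation test gave p = 0.25 for each of these 8, the smallest value that 3 rats allow, and 0.3125 after adjustment. The pairs without a fixed order were Gfap with Vim, and Synm with Lmnb1. Synm was 0.707 times Lmnb1 in rat 19, 0.145 times in rat 35 and 1.24 times in rat 70 (mean log2 ratio -0.99 ± 1.61, SD, n = 3; exact p = 0.5).

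Among 25 listed intermediate filament genes, the make-up of the pool differed by animal. Their summed level was 2734 FPKM in rat 19, 2066 FPKM in rat 35 and 1572 FPKM in rat 70. Gfap held 68.7% of it in rat 19, 27.3% in rat 35 and 43.8% in rat 70, and Vim 25.1%, 67.7% and 27.9% in rats 19, 35 and 70. The 5 neuronal filament genes held 4.11% in rat 19, 0.478% in rat 35 and 25.7% in rat 70, and all 5 were lowest in rat 35, beside 36.5% of all genes. Nefl, the light neurofilament subunit, stood at 60.8 FPKM in rat 19, 3.40 FPKM in rat 35 and 208 FPKM in rat 70, and Nefm, the medium subunit, at 15.9, 2.36 and 77.1 FPKM in rats 19, 35 and 70. Of the 14 muscle, lens and epithelial filament genes, 4 reached a mean of 1 FPKM. Over 2-fold apart were 3 of these, beside 49.9% of all genes, and 2 without rat 35, beside 17.1%. Des, the filament of muscle and of vessel wall cells, led them at 5.55 FPKM in rat 19, 14.9 FPKM in rat 35 and 3.35 FPKM in rat 70, the order of Vim, and Sync, which encodes syncoilin, followed at 5.13, 3.66 and 2.34 FPKM in rats 19, 35 and 70.

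**Figure D3:**
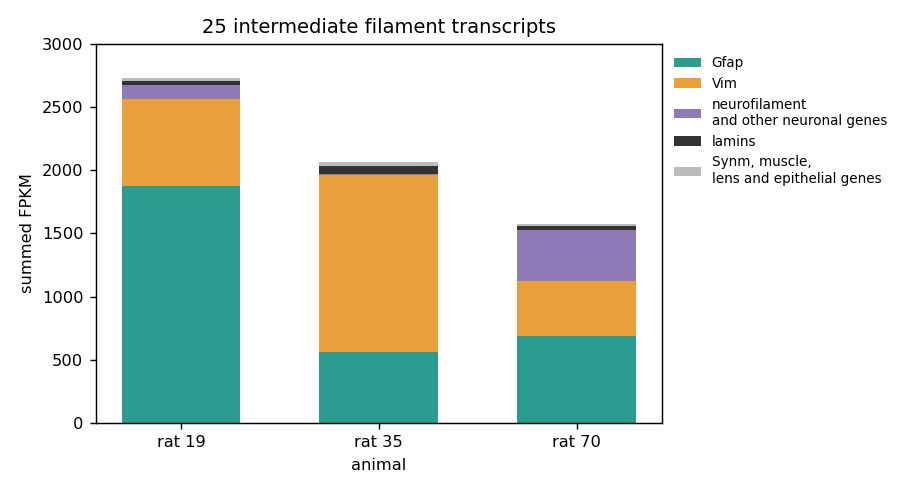
Summed FPKM of 25 intermediate filament genes in each rat, stacked by gene or group. Gfap is the largest block in rats 19 and 70 and Vim in rat 35, and the neuronal block grows to 404 FPKM in rat 70 against 9.88 FPKM in rat 35.

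Partners of the lamina were mostly highest in rat 35, as the lamins were. Of 19 genes of the nuclear envelope and of lamin processing, 8 (42.1%) were over 2-fold apart, near the 49.9% of all genes. Without rat 35 this was so of 1, beside 17.1% of all genes. The median range of the 19 with all rats was 0.96 on the log2 scale. Highest in rat 35 were 12 of the 19, beside 45.4% of all genes, and 9 had the order of Vim, beside 33.6% of all genes. Lmnb2, itself a lamin gene, is counted among the 19, the 12 and the 9. Tmpo, a lamina-binding membrane protein, had that order with a 2.84-fold range, and Banf1, which tethers chromatin to the envelope, stood at 59.3 FPKM in rat 19, 72.1 FPKM in rat 35 and 37.2 FPKM in rat 70. Zmpste24, the protease that matures prelamin A, was at 15.7 FPKM in rat 19, 29.6 FPKM in rat 35 and 17.5 FPKM in rat 70. Fnta, a subunit of the enzyme that attaches the lipid anchor of lamins, ran differently, at 80.0 FPKM in rat 19, 46.2 FPKM in rat 35 and 35.1 FPKM in rat 70.

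Cross-linkers, anchors and chaperones of filaments had no common order. Of 11 listed, 9 reached a mean of 1 FPKM, 4 of them (44.4%) over 2-fold apart, near the 49.9% of all genes. Without rat 35 this was so of 1, beside 17.1% of all genes. The highest rat was rat 19 for 4, rat 35 for 3 and rat 70 for 2. Plec, which encodes the cross-linker plectin, stood at 14.7 FPKM in rat 19, 14.5 FPKM in rat 35 and 9.48 FPKM in rat 70. Hspb1, a small heat shock protein that binds filaments, was highest where Gfap was, at 78.4 FPKM in rat 19, 37.7 FPKM in rat 35 and 25.7 FPKM in rat 70. Dmd and Dtna, whose products belong to the membrane complex that binds synemin, were lowest in rat 35 like Synm: Dmd stood at 9.32, 3.06 and 5.32 FPKM in rats 19, 35 and 70, and Dtna at 4.47, 1.97 and 8.66 FPKM in rats 19, 35 and 70. Of the 9, 4 were lowest in rat 35, beside 36.5% of all genes. Dag1, dystroglycan, the second most abundant of the list, was instead highest in rat 35, at 35.4, 60.2 and 44.8 FPKM in rats 19, 35 and 70. So was Vcl, which encodes vinculin, at 15.5, 28.8 and 12.7 FPKM in rats 19, 35 and 70.

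Astrocyte markers, like Gfap, were mostly lowest in rat 35. Of 12, all measured and none at 0, 9 were over 2-fold apart, beside 49.9% of all genes. Without rat 35 these were 5, beside 17.1% of all genes. With all rats, 8 were lowest in rat 35, beside 36.5%. Highest in rat 70 were 7, beside 29.8% of all genes, and highest in rat 19 were 4, beside 24.8%. The 4 were Aqp4, Aldh1l1, Gja1 and Sox9, of which Gja1 and Sox9 had the full order of Gfap, 2 of 12 beside 14.2% of all genes. Sox9, a transcription factor of astrocytes, stood at 11.1 FPKM in rat 19, 3.98 FPKM in rat 35 and 8.18 FPKM in rat 70. S100b, a calcium-binding protein of astrocytes, was at 721, 195 and 793 FPKM in rats 19, 35 and 70, and Glul, glutamine synthetase, at 763, 1118 and 970 FPKM in rats 19, 35 and 70. Slc7a10, an amino acid transporter with the largest SD of the list, was at 6.44 FPKM in rat 19, 0.583 FPKM in rat 35 and 18.7 FPKM in rat 70. Against the summed markers, Gfap was 0.772 in rat 19, 0.318 in rat 35 and 0.240 in rat 70, a 3.22-fold range, in a sum led by Glul and S100b. Over the single markers, Gfap was highest in rat 19 for 7 of 12, in rat 35 for S100b, Aldoc and Slc7a10, and in rat 70 for Aqp4 and Aldh1l1. Gfap over Aqp4, for instance, was 16.7 in rat 19, 10.3 in rat 35 and 40.7 in rat 70. Vim against the same sum was 0.283 in rat 19, 0.788 in rat 35 and 0.153 in rat 70. Synm over this sum had a 1.61-fold range.

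Genes of astrocyte reactivity were mostly highest in rat 35, where Gfap was lowest. Of 13 measured, 11 were over 2-fold apart, beside 49.9% of all genes. Without rat 35 these were 3, beside 17.1% of all genes. With all rats, 11 were highest in rat 35, beside 45.4% of all genes. The full order of Vim was found in 4, a share near its 33.6% among all genes. That of Gfap was found in 0, beside 14.2% of all genes. Timp1, an inhibitor of matrix proteases, stood at 102 FPKM in rat 19, 181 FPKM in rat 35 and 40.5 FPKM in rat 70, and Cp, ceruloplasmin, at 37.1, 257 and 41.4 FPKM in rats 19, 35 and 70. Steap4, a metal reductase, ranged most, at 0.877 FPKM in rat 19, 15.1 FPKM in rat 35 and 1.44 FPKM in rat 70. The exceptions were Tnc and Ptx3, both highest in rat 19, with the matrix protein gene Tnc at 29.1, 18.0 and 2.92 FPKM in rats 19, 35 and 70. Several of these genes are also expressed by phagocytes and fibroblasts.

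Markers of neural precursors and radial glia, in which Gfap, Vim and nestin are all known to be made, were highest in rat 19 for 6 of 9 genes, beside 24.8% of all genes. The order of Gfap was found in 3 of the 9, beside 14.2% of all genes. The order of Vim was also found in 3, near its 33.6% among all genes. Fabp7, a fatty acid binding protein of radial glia and astrocytes, stood at 763 FPKM in rat 19, 280 FPKM in rat 35 and 118 FPKM in rat 70. Sox2, a transcription factor of precursors and astrocytes, had the order of Gfap with a 5.09-fold range, at 67.0 FPKM in rat 19 and 13.2 FPKM in rat 35. Gfap over the summed markers was 2.09 in rat 19, 1.57 in rat 35 and 3.68 in rat 70, a 2.35-fold range. Fabp7 alone made up 84.8% of that sum in rat 19, 77.9% in rat 35 and 62.9% in rat 70. Without Fabp7, Gfap over the sum was 13.7 in rat 19, 7.08 in rat 35 and 9.89 in rat 70. Vim over the full sum, Fabp7 included, was 0.764 in rat 19, 3.88 in rat 35 and 2.34 in rat 70.

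Markers of other cells that make vimentin were highest in rat 35, where Vim was. Endothelial markers summed to 219 FPKM in rat 19, 365 FPKM in rat 35 and 148 FPKM in rat 70, with 9 of 10 highest in rat 35, beside 45.4% of all genes, and 8 in the order of Vim, beside 33.6%. Pericyte and smooth muscle markers summed to 229, 422 and 135 FPKM in rats 19, 35 and 70, with 9 of 10 highest in rat 35 and 8 in that order, against the same shares of all genes. Over 2-fold apart were 8 of the endothelial and 7 of the pericyte and smooth muscle markers, beside 49.9% of all genes. Without rat 35 these were 5 and 1, beside 17.1% of all genes. Cldn5, a tight junction gene of endothelium, stood at 80.3, 131 and 63.7 FPKM in rats 19, 35 and 70, and Rgs5, a pericyte signalling gene, at 60.7, 137 and 31.5 FPKM in rats 19, 35 and 70. Vim over the pericyte and smooth muscle sum was 3.00 in rat 19, 3.31 in rat 35 and 3.26 in rat 70, a 1.10-fold range, and over the endothelial sum 3.13, 3.83 and 2.96 in rats 19, 35 and 70, a 1.29-fold range. Without rat 35 these ranges were 1.08- and 1.06-fold. Vim was also nearly level over other sums. Its ratio to the reactive astrocyte sum ranged 1.49-fold, and 1.07-fold without rat 35. Over the proliferation sum it ranged 1.51-fold, and 1.46-fold without rat 35. The share of Vim that came from any of these cells was not tested.

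Fibroblast and phagocyte markers ranged more widely than Vim. Fibroblast markers summed to 662 FPKM in rat 19, 3171 FPKM in rat 35 and 852 FPKM in rat 70, and 8 of the 9 measured were highest in rat 35, beside 45.4% of all genes. The exception, Thy1, is also a neuronal gene and made up 50.1% of the sum in rat 19, 1.34% in rat 35 and 62.1% in rat 70. Without Thy1 the sum was 331 FPKM in rat 19, 3128 FPKM in rat 35 and 323 FPKM in rat 70. Col1a2 was listed at 0 in every rat. Col3a1, a fibrillar collagen chain, led with a 15.9-fold range. Microglia and macrophage markers summed to 952, 6052 and 931 FPKM in rats 19, 35 and 70, with 14 of 14 highest in rat 35 and 11 in the order of Vim, beside 45.4% and 33.6% of all genes, and none at 0. Lyz2, the lysozyme of phagocytes, ranged 12.2-fold. Over 2-fold apart were 9 of the 9 measured fibroblast markers and all 14 microglia and macrophage markers, beside 49.9% of all genes. Without rat 35 these were 2 and 6, beside 17.1% of all genes. Between rats 19 and 70 both sums differed less than Vim, which was 1.57-fold apart. Vim over the fibroblast sum was 1.04 in rat 19, 0.441 in rat 35 and 0.514 in rat 70 with Thy1, and 2.08, 0.447 and 1.36 in rats 19, 35 and 70 without it. Vim over the microglia and macrophage sum was 0.722, 0.231 and 0.471 in rats 19, 35 and 70, so in rat 35 Vim was low relative to both. The part of these cells in the level of Vim was not tested.

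All 9 proliferation genes had the order of Vim and Lmnb1, beside 33.6% of all genes. Each was over 2-fold apart, beside 49.9% of all genes, and 8 of the 9 were so without rat 35, beside 17.1%. Their sum was 123 FPKM in rat 19, 259 FPKM in rat 35 and 53.8 FPKM in rat 70. Pcna, the sliding clamp of DNA replication, stood at 62.5, 106 and 33.6 FPKM in rats 19, 35 and 70, and Cdk1, the kinase that drives mitosis and phosphorylates lamins and vimentin, at 6.61, 18.6 and 1.58 FPKM in rats 19, 35 and 70. Lmnb1 over this sum was 0.0710 in rat 19, 0.0747 in rat 35 and 0.0911 in rat 70, a 1.28-fold range. Lmnb1 was as level over other sums, with a 1.26-fold range over pericyte and smooth muscle markers and a 1.28-fold range over reactive astrocyte markers. Lmna over the proliferation sum was 0.135, 0.140 and 0.282 in rats 19, 35 and 70, a 2.09-fold range. Lmna over the endothelial sum was 0.0759, 0.0995 and 0.103 in rats 19, 35 and 70, a 1.35-fold range.

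Neuronal markers were lowest in rat 35 for all 10 genes, beside 36.5% of all genes, with Snap25, a protein of vesicle fusion, at 383 FPKM in rat 19, 12.2 FPKM in rat 35 and 564 FPKM in rat 70. Oligodendrocyte markers differed less, 2 of 9 over 2-fold apart beside 49.9% of all genes, with a sum of 4408, 3695 and 5805 FPKM in rats 19, 35 and 70. Without rat 35, 1 of the 9 was over 2-fold apart, beside 17.1% of all genes. Precursor markers of that lineage summed to 221, 294 and 273 FPKM in rats 19, 35 and 70, with 3 of 6 over 2-fold apart, near the 49.9% of all genes. Without rat 35 this was so of 0 of the 6, and Pdgfra and Cspg4 stand in another list too. The 4 measured ependymal markers were all lowest in rat 35, beside 36.5% of all genes, and the 6 with a row summed to 3.62 FPKM there, a 3.86-fold range. Of all 16 lists, 11 had sums over 2-fold apart, and 3 did without rat 35: the neuronal filaments, the precursor and radial glia markers and the proliferation genes.

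**Figure D4:**
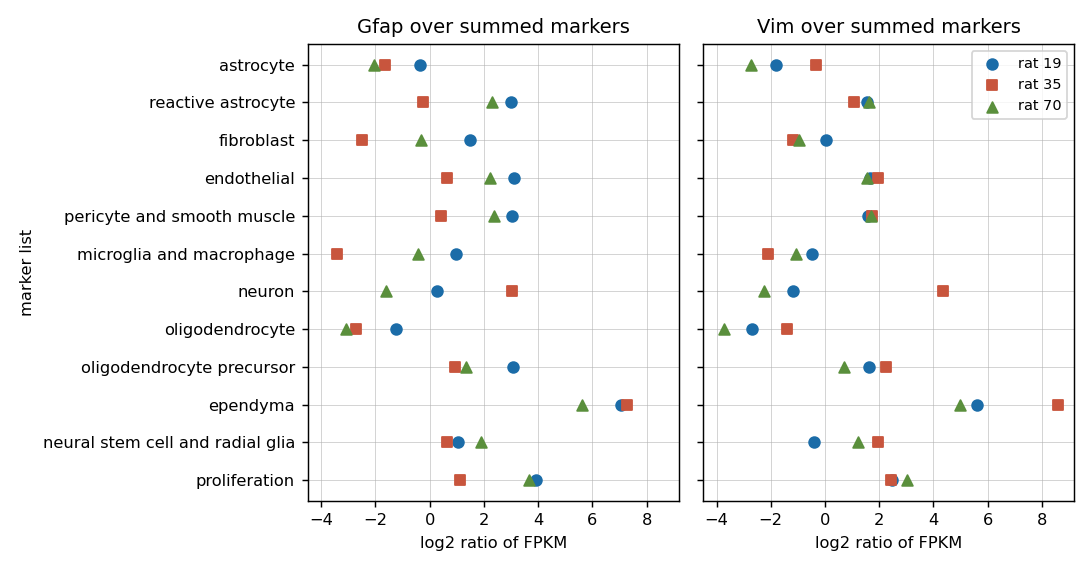
Log2 ratio of Gfap (left) and Vim (right) to the summed FPKM of each of 12 marker lists within a rat; each marker is a rat. For Vim the 3 rats fall almost together over pericyte and smooth muscle markers (1.10-fold range) and far apart over neuronal markers (97.2-fold), whereas for Gfap the narrowest range is 2.35-fold.

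Fewer genes lay close to the profile of Gfap over the rats than to those of the other filament genes. Likeness was the Euclidean distance between log2(FPKM + 1) profiles, each minus its mean over the 3 rats, among 9730 named genes with a mean of 5 FPKM or more. Within a distance of 0.25 lay 14 genes (0.144%) for Gfap, 300 (3.08%) for Vim, 301 (3.09%) for Synm, 354 (3.64%) for Lmna and 250 (2.57%) for Lmnb1. No such counts are given for other genes, so whether these are few or many for a gene is not known. Nearest to Gfap were Haghl (13.4, 3.51 and 4.34 FPKM in rats 19, 35 and 70), Efnb3, an ephrin ligand (35.8, 9.49 and 12.3 FPKM), and Slfn3. Nearest to Vim were Gja4, a connexin of vessels (5.99, 12.9 and 3.37 FPKM), Rfc3, a subunit of the clamp loader of DNA replication (6.73, 14.9 and 3.84 FPKM), and Gpx8 (25.8, 55.4 and 16.3 FPKM). Synm lay nearest to Rpusd1, Evi5l and Ppp1r3c, Lmna to Rbms2, G6pdx and Rps10, and Lmnb1 to Dera, Swap70 and Sec61b. Among the genes themselves, Vim and Lmnb1 were 0.0842 apart, Vim and Lmna 0.406, Gfap and Synm 1.01, and Gfap and Vim 2.01. With 3 animals a profile holds little information, and a short distance is a description of these libraries.

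**Figure D5:**
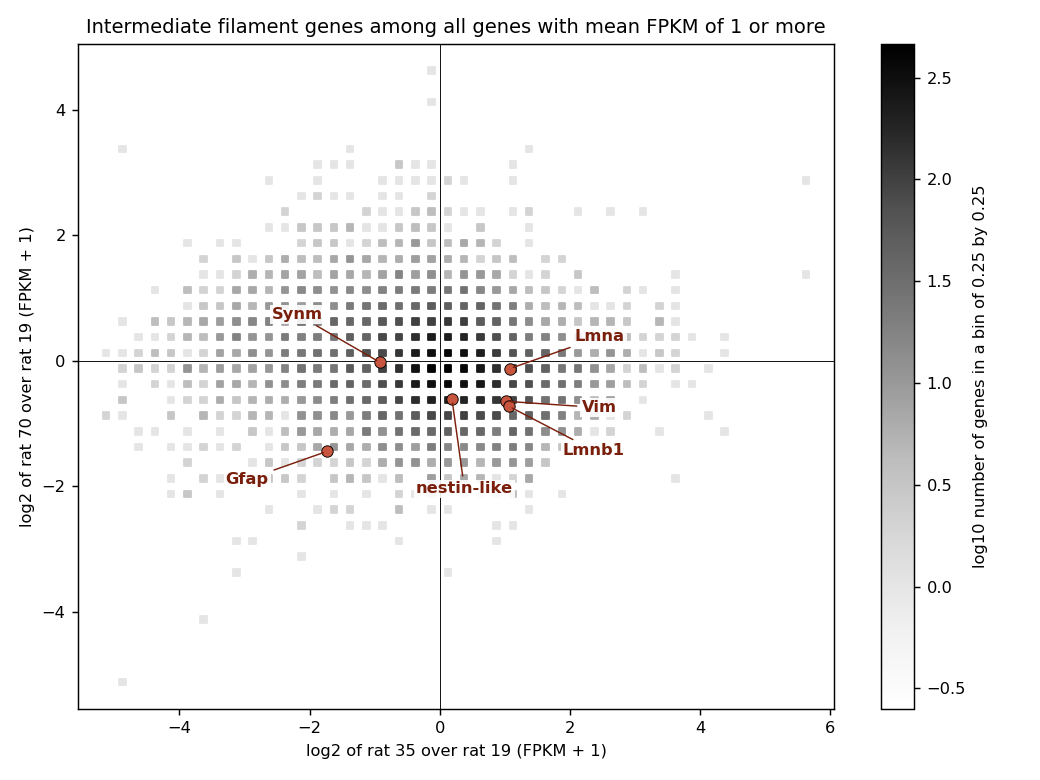
Each grey square counts the genes with a mean of 1 FPKM or more in a bin of log2 ratios, rat 35 over rat 19 on the horizontal axis and rat 70 over rat 19 on the vertical axis, after adding 1 to FPKM; red points are the filament genes. Gfap lies at the lower left, with both other rats below rat 19, while Vim and Lmnb1 lie side by side at the right.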

How the data were processed

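Total RNA of motor cortex was separated into mRNA and sequenced, per the labels. The authors counted fragments per gene, normalized them and deposited FPKM made with a Perl script, per the labels' design text, without stating what was normalized. Per the submitters' processing notes, StringTie 1.3.0, HISAT2 2.0.4 and the Rnor 6.0 build were used; their roles and any strand setting are not known here. Every file lists the same 30957 genes. An exact 0 can be a failed estimate, since Hprt1, Rps6, Rpl8 and Hsp90aa1 were listed at 0 in every rat.

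FPKM was used as deposited, with Python 3.11.15, numpy 2.4.6, pandas 2.3.3, scipy 1.17.1 and matplotlib 3.10.9. Folds between rats and ratios between genes had no pseudocount. Profiles, correlations across genes and the SDs compared between genes used log2(FPKM + 1), on which low genes differ less than they do in FPKM. Genes with a mean of 1 FPKM or more gave the background. With 1 group of 3 rats no comparison can pass a threshold of 0.05, since the smallest exact sign-flip p is 0.25. The fragments behind a value were read from genes whose span equals their length. A gene's length was the smallest, searched to 20000 bp, at which every rat's value came out whole within 0.005. The true length can be a multiple, which would make counts minima and intervals at most as wide as stated. It can also be shorter, if it just missed the tolerance. Counts and Poisson intervals, which cover counting error only, are therefore estimates. For the first nestin-like row that length exceeded the gene's span, and no interval is given. The counts of folds and the profile search were also run on simulated data. These had less noise between rats than the real genes and shifts in a single rat. That run checked the code only and does not show how the counts behave in these data.

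The genes, lists, pairs and alternatives were chosen with earlier results of these data known, and the ratios to summed markers, the pool shares, the sums without Thy1 or Fabp7 and the list counts and ratio ranges without each rat were added after the values were seen. The rule for named genes took the 2 most abundant and the most variable member of each list. It also took the 3 nearest profiles of each gene. Some of the genes so chosen are given only by name or not at all. Other list genes, such as Plec, Dmd, Vcl, Zmpste24, Lmnb2, Gja1, Sox9, Aqp4, Aldh1l1, Tnc, Ptx3 and Thy1, were named after their values were seen. The sign-flip tests cover 10 pairs, since Nes has no row. Eppk1, Serpina3n, Pecam1 and Foxj1 had no row. Alternatives were pseudocounts of 0.1 and 1, other FPKM minima, 3 other scalings and leaving out each rat. Promoter sequences are RefSeq's, on build GRCr8, whose coordinates are not those of the files.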

Additional observations from a re-analysis of the deposited data

How the results depend on the processing

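Other scalings (a common sum, the same without mitochondrial genes, and the median of ratios) moved the rats against each other by up to 0.17, 0.25 and 0.15 on the log2 scale. With them, the other pseudocounts and the other FPKM minima, the 50 recomputed values of the main results stayed within 1.5 times for counts and within 1 SD for levels. Of the values of single gene pairs and lists, 105 did so and 8, all of them for lists, did not. Leaving out each rat in turn mattered more. The mean log2 ratio of Gfap to Vim was -0.33 to 1.05, negative without rat 19. The number of the 5 genes over 2-fold apart was 1 to 5 and the share of all genes 17.1% to 43.2%, both lowest without rat 35. The log2 range from the highest to the lowest rat was 0.29 to 1.74 for Gfap (lowest without rat 19), 0.65 to 1.67 for Vim, 0.030 to 1.14 for Synm, 0.13 to 1.26 for Lmna and 0.84 to 1.98 for Lmnb1 (all lowest without rat 35). The number of lists with sums over 2-fold apart was 3 to 10. The cause of these shifts, beyond the smaller number of animals, was not tested. No order of 3 rats could be recomputed with 2. No paired analysis was possible because there is only 1 group. Depth limits the lowest levels: Lmnb1 rests on an estimated 169 fragments in rat 70, and the second nestin-like row on too few to compare.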
